A study of Mus musculus with 40 samples.

Results

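Colonic epithelial cells were compared between 3 mice that had received Tritrichomonas musculis (T.mu), a flagellated protozoan that lives in the gut of mice, and 3 uninoculated control mice, 14 days after inoculation. These 6 libraries, chosen by the tissue, inoculum and day in the sample labels, are 6 of the 40 in a study that also sampled total colonic tissue and days 3 and 48. Each colonized mouse had received 2000000 sorted T.mu cells, and the control label gives no inoculum. Every library carries a litter number, 1, 2 or 3, and each number occurs once per group, so that control 1 and T.mu 1 share a litter label. Mouse strain, age, sex and how the epithelial cells were separated are not given in the sources used here, and no allele or other treatment is named. The readout was 3′ digital gene expression, which sequences the ends of transcripts and counts them per gene. Levels are counts per 1000000 (CPM) scaled by the trimmed mean of M-values (TMM), and lists of 3 values follow the litter order 1, 2, 3.

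The libraries held 860735 to 1526133 counts, with a median of 1067462 in controls and 1152580 with T.mu, and between 15305 and 18164 genes had a count. Counts on ribosomal RNA genes and on Lars2, whose sequence overlaps them, made up 33.2% to 34.2% of a control library and 25.6% to 35.7% of a T.mu library. As a check for libraries deposited more than once, replicates were compared in pairs, and each pair differed by more than counting noise (chi-square over degrees of freedom 3.91 to 12.7). The labelled cell type was checked against marker genes. Epcam, an adhesion molecule of epithelia, was at 937, 895 and 914 CPM in the controls and 1017, 980.3 and 1079 CPM with T.mu, whereas the pan-leukocyte gene Ptprc was at 12.1, 14.3 and 6.08 CPM in the controls and 9.50, 9.22 and 7.19 CPM with T.mu. Neither differed past the threshold (Epcam log2 difference 0.16 ± 0.22, adjusted p = 0.858, and Ptprc log2 difference -0.30 ± 0.58, adjusted p = 0.914). Of 15 epithelial identity markers, Epcam among them, 12 had a positive and 3 a negative log2 difference (list median 0.34).

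Interferons are secreted proteins that alert cells to microbes. Type I interferons (interferon-alpha and interferon-beta) and type III interferons (interferon-lambda) act through receptor pairs that activate the kinases Jak1 and Tyk2, which phosphorylate transcription factors of the STAT family. Together with Irf9 these bind an interferon-stimulated response element (ISRE) in the promoters of antiviral genes. Interferon-gamma acts through another receptor and a gamma-activated site (GAS) in promoters, and raises genes of antigen presentation. Gut epithelial cells respond strongly to interferon-lambda, and they show MHC class II on their surface when exposed to interferon-gamma.

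Of 10119 genes tested with edgeR's quasi-likelihood test, 51 (0.504%) differed between T.mu and control at an adjusted p under 0.05, 34 higher (0.336%) and 17 lower (0.168%). Of the 34 higher genes, 25 belonged to lists of interferon-induced or MHC genes, and 9 to none of them. These lists held 105 of the 10119 genes tested and were written with earlier results of these data known. Higher genes differed by 2.12-fold or more, with a median of 4.66-fold. The lower genes differed by 1.96-fold to 2.78-fold, with a median of 2.05-fold, and 6 of them encode cytoplasmic ribosomal proteins. In all 51 genes the 3 T.mu values lay outside the range of the 3 control values. These genes were chosen by p-values from the same libraries, so that separation adds no support to the calls. Over all genes tested, the groups did not overlap in 9.76% with T.mu higher and in 8.94% with T.mu lower, and the median log2 difference was 0.01. At an unadjusted p under 0.05, 1046 genes (10.3%) differed, 540 higher (5.34%) and 506 lower (5%).

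Other fits gave other numbers of genes past the threshold. With each day and litter as a block, 93 genes passed, 51 higher and 42 lower. Litter number as a block across days gave 59 genes, and together with a correction for GC content and gene length it gave 104 genes, 53 higher and 51 lower, and among them were all 34 higher and 16 of the 17 lower genes. A fit on these 6 libraries alone, with its own estimate of spread and 8041 genes tested, gave 262 genes, 142 higher and 120 lower, and among them were 31 of the 34 higher and all 17 lower genes. Leaving out 1 library at a time gave 19 genes without T.mu 3, 20 without control 2, 21 without control 1, 27 without T.mu 1, 35 without T.mu 2 and 48 without control 3. With any 1 library left out, 13 of the 34 higher genes were still past the threshold each time, and none of the 17 lower genes was.

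**Figure D1:**
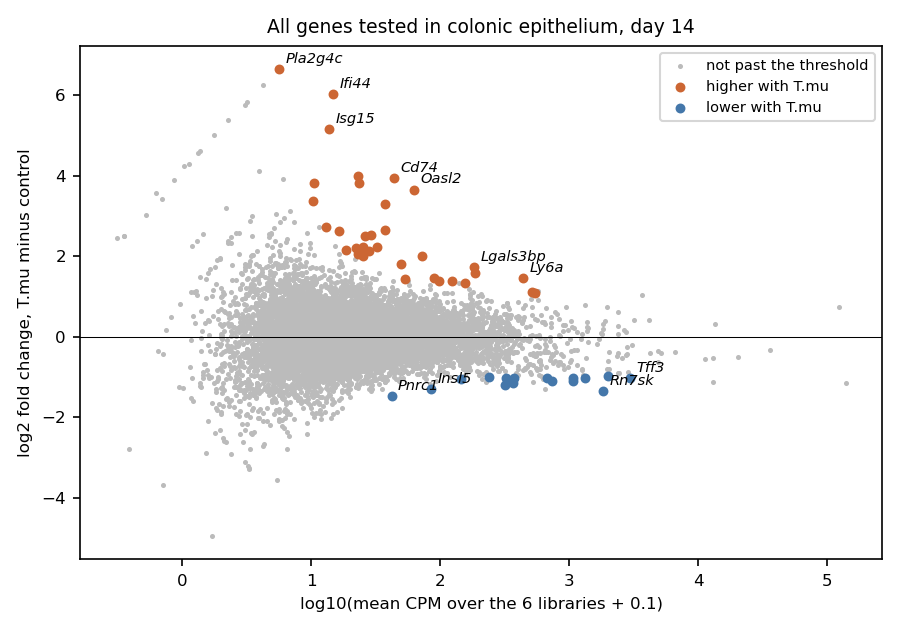
Each point is 1 of the 10119 genes tested, placed by its mean level over the 6 libraries (horizontal, log10 of CPM plus 0.1) and its log2 fold change between T.mu and control (vertical). The 34 higher genes (orange) reach far from 0 at low and middle levels, and the 17 lower genes (blue) lie close to a log2 difference of -1 at middle and high levels.

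The first question was whether transcripts of interferons themselves or of their receptors differed. None of the 8 interferon ligand genes listed had enough counts to be tested. Ifnb1, Ifna4, Ifnl2, Ifnl3 and Ifng had 0 counts in all 6 libraries, and a count of 0 allows up to 3 counts per library, so a difference under that was not detectable at this depth. Of the receptor genes, 4 could be tested and none passed the threshold. Ifnar1, a chain of the type I receptor, was at 16.9, 15.2 and 7.82 CPM in the controls and 25.3, 23.1 and 17.97 CPM with T.mu (log2 difference 0.75 ± 0.50, adjusted p = 0.643), and its groups did not overlap. Ifngr1, the ligand-binding chain of the interferon-gamma receptor, was at 128, 126 and 126 CPM in the controls and 130.5, 127 and 155 CPM with T.mu (log2 difference 0.12 ± 0.24, adjusted p = 0.922), with similar values in both groups. Ifngr2 and Il10rb, the chain that the interferon-lambda receptor shares with receptors of the IL-10 family, gave log2 differences of 0.30 and -0.02. Ifnar2 and Ifnlr1 fell below the filter on low counts, with Ifnlr1 at 12.1, 7.61 and 6.95 CPM in the controls and 5.07, 4.61 and 7.19 CPM with T.mu.

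Among 13 kinases and transcription factors of the pathway that could be tested, Irf7 alone passed the threshold (list median 0.67, against 0.01 over all genes). Irf7 encodes the factor that drives interferon-alpha genes and is itself induced by interferon. It was at 82.1, 62.8 and 59.1 CPM in the controls and 209, 118 and 202 CPM with T.mu, 2.61-fold higher (log2 difference 1.38 ± 0.28, adjusted p = 0.0038). The T.mu values of litters 1 and 3 lay close together and that of litter 2 was lower, though above every control. The call was lost without T.mu 3 or control 2 (adjusted p up to 0.0589).

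Stat2, a subunit of the complex that binds the ISRE, was at 9.66, 7.61 and 6.95 CPM in the controls and 24.7, 20.7 and 25.2 CPM with T.mu (log2 difference 1.55 ± 0.54, adjusted p = 0.229). Irf1, a factor of the interferon-gamma response, was at 36.2, 35.2 and 36.5 CPM in the controls and 95.02, 76.8 and 65.6 CPM with T.mu (log2 difference 1.14 ± 0.32, adjusted p = 0.0803). In both genes each T.mu value was above each control value, and neither passed the adjusted threshold. Irf9, the partner of Stat2, was at 24.1, 20.9 and 33.9 CPM in the controls and 54.5, 21.5 and 43.1 CPM with T.mu (log2 difference 0.59 ± 0.41, adjusted p = 0.659), with overlapping groups. The kinases were not past the threshold either, at log2 differences of 1.07 ± 0.52 for Tyk2, -0.09 ± 0.28 for Jak1 and -0.71 ± 0.43 for Jak2.

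Promoters of the higher genes were searched because ISRE and GAS sequences are the known sites of these factors. RefSeq (GRCm38.p6) gave a window of 250 bases before to 50 after the start for 25 of the 34 higher genes. The first window of each gene was used. Bases after the start lay within the start of an annotated transcript in 29 of the 37 windows of higher and lower genes compared. Distances are therefore to the RefSeq start, which need not be the start used in these cells. An ISRE-like core, GAAA followed after any 2 bases by another GAAA, was counted on either strand with overlaps allowed, and it occurred in 9 of these 25 windows (36.0%), in 3.49% of all 27025 windows and in 3.05% of the 7840 windows of genes tested. Among the lower genes it occurred in 2 of 12 windows. The pattern TTCNNNGAA, a GAS-like core that reads the same on both strands, occurred in 5 of the 25 windows (20%), in 8.47% of all windows, in 6.84% of the windows of genes tested and in 2 of 12 windows of lower genes. These matches are letters in a window and not sites shown to be bound. The 150 bases before the start are shown for the 5 of the 15 higher genes with the smallest adjusted p that hold an ISRE-like match there. They are written 5′ to 3′ along the gene's own strand, with the matches in capitals.
Oas3 (chr5:120777660-120777809, minus strand): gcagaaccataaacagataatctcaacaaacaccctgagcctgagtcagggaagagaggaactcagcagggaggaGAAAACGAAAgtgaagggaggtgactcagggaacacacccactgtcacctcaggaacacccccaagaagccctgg
Isg15 (chr4:156200819-156200968, minus strand): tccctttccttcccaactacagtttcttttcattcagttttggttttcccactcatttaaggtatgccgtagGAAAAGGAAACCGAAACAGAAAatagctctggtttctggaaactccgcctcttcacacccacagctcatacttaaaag
Ifit1 (chr19:34640739-34640888, plus strand): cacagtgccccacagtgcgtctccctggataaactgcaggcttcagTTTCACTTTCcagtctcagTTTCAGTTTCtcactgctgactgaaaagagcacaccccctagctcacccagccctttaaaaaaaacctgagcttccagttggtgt
Lgals9 (chr11:78984925-78985074, minus strand): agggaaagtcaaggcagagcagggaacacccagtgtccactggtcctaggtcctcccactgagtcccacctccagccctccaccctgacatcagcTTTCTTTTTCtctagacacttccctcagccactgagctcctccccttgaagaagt
Oas1a (chr5:120907526-120907675, minus strand): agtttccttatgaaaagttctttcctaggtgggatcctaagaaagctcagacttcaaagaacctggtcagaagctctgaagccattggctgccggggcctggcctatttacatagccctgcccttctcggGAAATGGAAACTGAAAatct
Isg15 holds 3 overlapping matches, between 78 and 57 bases before the start. Ifit1 holds 2 separate matches on the opposite strand, at 104 to 95 and at 85 to 76 bases before the start. Oas1a holds 2 overlapping matches within 20 bases of the start, Oas3 has 1 at 75 to 66 bases and Lgals9 has 1 at 55 to 46 bases, with another after its start. Ddx60, Bst2, Irgm2 and Igtp were the other 4 higher genes with an ISRE-like match.

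The oligoadenylate synthetases, which sense double-stranded RNA and make a small messenger molecule, formed the group with the largest share past the threshold. Of 7 members tested, 4 were higher and none was lower (list median 2.01). Oasl2 was at 7.25, 7.61 and 12.2 CPM in the controls and 116, 74.5 and 160.0 CPM with T.mu, 12.6-fold higher (log2 difference 3.65 ± 0.40, adjusted p = 1.03e-08). It had the smallest p-value of the comparison, and the lowest T.mu value was over 6 times the highest control value. Oas3, whose promoter is shown above, was at 0, 3.80 and 3.48 CPM in the controls and 33.6, 44.6 and 51.2 CPM with T.mu (log2 difference 3.99 ± 0.58, adjusted p = 1.58e-05). Its 3 T.mu values were all far above the controls, of which control 1 had no count.

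Oas1a was at 30.2, 19.97 and 34.8 CPM in the controls and 121, 66.1 and 157 CPM with T.mu (log2 difference 2.01 ± 0.38, adjusted p = 0.00223), with T.mu 2 the lowest of the T.mu libraries. Oasl1 was at 13.3, 3.80 and 9.55 CPM in the controls and 39.9, 33.8 and 50.3 CPM with T.mu (log2 difference 2.23 ± 0.49, adjusted p = 0.011). In both genes the groups were apart. Oasl2 and Oas3 were past the threshold with any 1 library left out, whereas Oas1a was not without control 2 (adjusted p = 0.0587) and Oasl1 was not without T.mu 3 or control 2 (up to 0.189). Without control 2, 2 members of the list were past the threshold. Oas1a and its near copy Oas1g (log2 difference 1.05 ± 0.54, adjusted p = 0.508) can share reads, so the split between them is uncertain.

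Of 11 genes of the Ifit and Ifi families tested, 4 were higher and none lower (list median 1.38). Ifit1, which binds viral RNA that lacks the cap marks of host messenger RNA, was at 4.83, 11.4 and 8.69 CPM in the controls and 50.7, 44.6 and 53.9 CPM with T.mu (log2 difference 2.53 ± 0.47, adjusted p = 0.0012), and its 3 T.mu values lay within a narrow range. Ifi44, an interferon-induced gene, was at 1.21, 0 and 0 CPM in the controls and 31.7, 15.4 and 39.5 CPM with T.mu. It had 114 counts with T.mu and 1 in controls, a ratio of 86.5 after scaling with a 95% counting interval of 15.2 to 3447 (adjusted p = 1.58e-05). Among controls, only control 1 had any count.

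Ifi27l2a and Ifi27l2b are neighbouring genes for small membrane proteins and may share reads. Ifi27l2a was at 3.62, 3.80 and 1.74 CPM in the controls and 43.1, 15.4 and 72.8 CPM with T.mu (log2 difference 3.81 ± 0.59, adjusted p = 5.24e-05), with T.mu 2 well below the other T.mu libraries and still above the controls. Ifi27l2b was at 48.3, 56.1 and 58.2 CPM in the controls and 142, 126 and 158 CPM with T.mu (log2 difference 1.38 ± 0.26, adjusted p = 0.00178), and its T.mu values differed little among themselves. All 4 of these genes were past the threshold with any 1 library left out. Ifit2 and Ifit3 had few counts and did not pass (2.88 with adjusted p = 0.339, and 2.05 with adjusted p = 0.623).

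**Figure D2:**
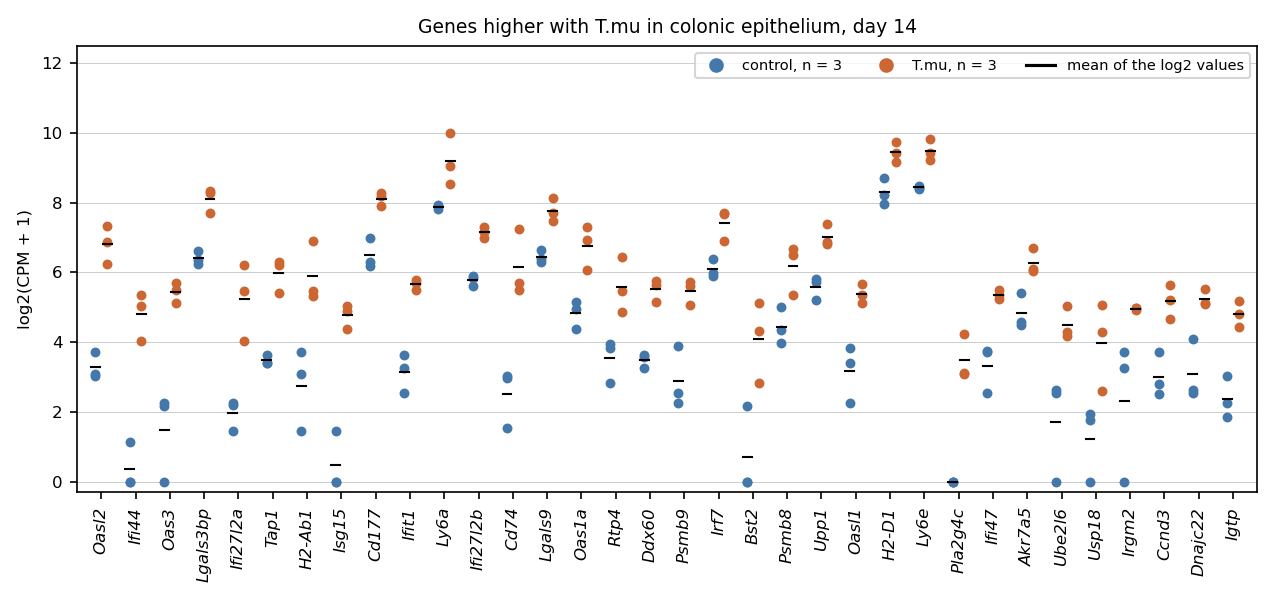
Levels of the 34 higher genes in each library, as log2 of CPM plus 1, with the genes ordered by adjusted p. Blue points are the 3 controls, orange points are the 3 T.mu libraries and the bar is the mean of the log2 values. For every gene the orange points lie above the blue points, and the spread among T.mu libraries is wide for Cd74, Bst2 and Usp18.

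Isg15 encodes a ubiquitin-like protein that is attached to other proteins by Uba7, Ube2l6 and a Herc ligase and removed by Usp18, which also blocks signalling at the type I interferon receptor. Of the 6 genes tested in the list for this system, which also holds Isg20 (log2 difference 0.20), 3 were higher and none lower (list median 2.23). Isg15 was at 0, 0 and 1.74 CPM in the controls and 31.7, 19.97 and 28.8 CPM with T.mu. With 108 counts against 2, the ratio was 41.0 with a 95% counting interval of 11.1 to 343 (adjusted p = 0.000206), and 2 of the 3 controls had no count.

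Ube2l6, the conjugating enzyme, was at 4.83, 0 and 5.21 CPM in the controls and 31.7, 18.4 and 17.1 CPM with T.mu (log2 difference 2.73 ± 0.64, adjusted p = 0.0198). Usp18 was at 2.42, 2.85 and 0 CPM in the controls and 5.07, 18.4 and 32.4 CPM with T.mu (log2 difference 3.37 ± 0.80, adjusted p = 0.0221). The Usp18 values differed among T.mu libraries, with T.mu 1 close to the controls and T.mu 3 highest. Isg15 was past the threshold with any 1 library left out, Ube2l6 was not without T.mu 1, control 1 or control 2 (up to 0.326), and Usp18 was not without T.mu 2, T.mu 3, control 1, control 2 or control 3 (up to 0.274) or with each day and litter as a block (0.0549). Without control 1 or without control 2, 1 member of the list was past the threshold. Uba7, the activating enzyme, was at 8.45, 11.4 and 26.1 CPM in the controls and 47.5, 17.7 and 64.7 CPM with T.mu and did not pass (log2 difference 1.45 ± 0.45, adjusted p = 0.158).

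Of 16 interferon-induced genes for membrane, secreted and antiviral proteins, 4 were higher and none lower, and 12 had an unadjusted p under 0.05 in the higher direction (5.34% of all genes; list median 1.34). Lgals3bp encodes a secreted glycoprotein that binds galectin-3. It was at 74.9, 97.00 and 80.8 CPM in the controls and 312, 207 and 323 CPM with T.mu, 3.32-fold higher (log2 difference 1.73 ± 0.26, adjusted p = 2.45e-05), with every T.mu value over 2 times every control. Lgals9, which encodes galectin-9, was at 78.5, 81.8 and 99.9 CPM in the controls and 206, 178 and 280.4 CPM with T.mu (log2 difference 1.35 ± 0.26, adjusted p = 0.00188). In both genes the groups were apart.

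Rtp4, an interferon-induced chaperone of membrane receptors, was at 14.5, 13.3 and 6.08 CPM in the controls and 43.1, 28.4 and 86.3 CPM with T.mu (log2 difference 2.23 ± 0.44, adjusted p = 0.00253). Bst2, or tetherin, which holds budding virus at the cell surface, was at 0, 0 and 3.48 CPM in the controls and 19.00, 6.15 and 34.1 CPM with T.mu (log2 difference 3.82 ± 0.80, adjusted p = 0.00666). In both genes T.mu 3 was the highest library and T.mu 2 the lowest of its group. Lgals3bp was past the threshold with any 1 library left out. Without T.mu 3, neither Lgals9 (0.07) nor Rtp4 (0.119) was past it, and Lgals3bp was then the only member of the list that was. Bst2 was not past it without T.mu 3, control 1 or control 2 (up to 0.119). Mx1, the classical antiviral GTPase, was at 4.83, 9.51 and 4.34 CPM in the controls and 1.27, 6.91 and 1.80 CPM with T.mu and did not pass (log2 difference -0.90 ± 0.95, adjusted p = 0.813). Most common laboratory strains of mice carry a defective Mx1 gene, and the strain used here is not given.

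Among 12 sensors of foreign nucleic acid tested, Ddx60, a helicase that assists RNA sensing, was higher at 10.9, 11.4 and 8.69 CPM in the controls and 48.8, 34.6 and 53.02 CPM with T.mu (log2 difference 2.13 ± 0.42, adjusted p = 0.00253). Its groups were narrow and apart, and it was past the threshold with any 1 library left out. The list median was 0.61, and 5 of the 12 had an unadjusted p under 0.05 in the higher direction (5.34% of all genes). Zbp1, a sensor of left-handed nucleic acid, was at 19.3, 22.8 and 8.69 CPM in the controls and 34.2, 32.3 and 44.9 CPM with T.mu (log2 difference 1.14 ± 0.41, adjusted p = 0.257).

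The immunity-related GTPases (IRG) and guanylate-binding proteins (GBP) attack the vacuoles in which intracellular microbes live and are induced mainly by interferon-gamma. Of 7 tested, 2 were higher and none lower (list median 2.15). Igtp was at 7.25, 3.80 and 2.61 CPM in the controls and 27.2, 35.3 and 20.7 CPM with T.mu (log2 difference 2.63 ± 0.66, adjusted p = 0.0361), and Irgm2 was at 12.1, 0 and 8.69 CPM in the controls and 30.4, 29.2 and 30.6 CPM with T.mu (log2 difference 2.15 ± 0.52, adjusted p = 0.0269). Both had separate groups. Both calls rested on nearly every library: Igtp was not past the threshold with any 1 of the 6 libraries left out (adjusted p up to 0.245) and Irgm2 was only without control 1 (up to 0.393 in the others). Each has near copies in the genome with which reads can be shared.

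Ifi47, a further GTPase of the IRG family that was in none of the lists, was at 4.83, 12.4 and 12.2 CPM in the controls and 39.9, 36.9 and 44.03 CPM with T.mu (log2 difference 1.99 ± 0.44, adjusted p = 0.0116). Its call was lost without T.mu 1, T.mu 3, control 1 or control 2 (up to 0.197). Gbp3 had 0 counts in controls and 33 with T.mu, so it was at least 8.35-fold higher against a floor of 3 counts over the control group, but it did not pass (adjusted p = 0.0585). Gbp2 was at 0, 14.3 and 1.74 CPM in the controls and 5.07, 16.9 and 17.97 CPM with T.mu (log2 difference 1.24 ± 0.79, adjusted p = 0.622), with overlapping groups. Setting Gbp3, Ifi44 and Isg15 at such a bound or ratio leaves each of them above the median of its list.

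MHC class I molecules present peptides that the immunoproteasome cuts and the Tap transporter carries into the endoplasmic reticulum. Of 21 genes of this path tested, 4 were higher and none lower, and the list median was 0.79. In the higher direction, 15 had an unadjusted p under 0.05 (5.34% of all genes). Tap1, a chain of the transporter, was at 9.66, 11.4 and 9.55 CPM in the controls and 73.5, 41.5 and 78.2 CPM with T.mu, 6.24-fold higher (log2 difference 2.64 ± 0.41, adjusted p = 5.24e-05). The control values lay within a narrow range and the T.mu values were all several times higher, T.mu 2 being the lowest.

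Psmb9, a catalytic subunit of the immunoproteasome, was at 4.83, 3.80 and 13.9 CPM in the controls and 51.95, 47.6 and 32.4 CPM with T.mu (log2 difference 2.49 ± 0.50, adjusted p = 0.00298). Psmb8, another, was at 19.3, 31.4 and 14.8 CPM in the controls and 101, 39.95 and 88.96 CPM with T.mu (log2 difference 1.81 ± 0.39, adjusted p = 0.00896). H2-D1, a classical class I heavy chain with near copies in the same locus, was at 298, 250.1 and 419.6 CPM in the controls and 848, 567 and 688 CPM with T.mu (log2 difference 1.12 ± 0.25, adjusted p = 0.011). In all 3 genes the groups were apart, and for Psmb8 the gap between control 2 and T.mu 2 was small. Tap1 was past the threshold with any 1 library left out. Psmb9 was not without control 1 or control 2 (up to 0.0795), Psmb8 was not without T.mu 1, T.mu 3, control 1 or control 3 (up to 0.122), and H2-D1 was not without T.mu 1, T.mu 3, control 1 or control 2 (up to 0.245). Without control 1, Tap1 was the only member past it. H2-K1 (0.63 ± 0.22, adjusted p = 0.222) and B2m (0.79 ± 0.27, adjusted p = 0.229) had separate groups and did not pass. Nlrc5, the class I transactivator, had 10 counts with T.mu and 3 in controls, a ratio of 2.53 with a counting interval of 0.652 to 14.3.

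MHC class II molecules present peptides to CD4+ T cells, and Cd74, the invariant chain, guides their assembly. Of 7 genes tested, 2 were higher and none lower (list median 2.73). Cd74 was at 7.25, 1.90 and 6.95 CPM in the controls and 149.5, 44.6 and 51.2 CPM with T.mu, 15.2-fold higher (log2 difference 3.93 ± 0.68, adjusted p = 0.00183). H2-Ab1, a class II beta chain, was at 12.1, 7.61 and 1.74 CPM in the controls and 118, 39.2 and 43.1 CPM with T.mu, 9.73-fold higher (log2 difference 3.28 ± 0.54, adjusted p = 0.000113). In both genes T.mu 1 was about 3 times as high as the other T.mu libraries, every T.mu value was above every control, and both were past the threshold with any 1 library left out.

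The other class II chains were uneven across T.mu libraries and did not pass. H2-Eb1 was at 2.42, 1.90 and 4.34 CPM in the controls and 36.1, 19.97 and 3.59 CPM with T.mu (log2 difference 2.73 ± 0.87, adjusted p = 0.172), so that T.mu 3 lay within the control range. H2-Aa was at 4.83, 1.90 and 3.48 CPM in the controls and 21.5, 0 and 3.59 CPM with T.mu (log2 difference 1.34 ± 1.01, adjusted p = 0.701), with no count in T.mu 2. H2-DMa, which loads peptides, was at 2.42, 1.90 and 0.869 CPM in the controls and 11.4, 10.8 and 16.2 CPM with T.mu (log2 difference 2.85 ± 0.98, adjusted p = 0.219), above every control in each T.mu library. Ciita, the class II transactivator, had 8 counts with T.mu and 0 in controls, which is at least 2.02-fold against a floor of 3 counts over the group.

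Professional antigen-presenting cells also carry class II, so their markers were measured in the same libraries. The summed level of 25 macrophage and dendritic cell markers was 231 to 295 CPM in controls and 245 to 290 with T.mu. That of 17 B and plasma cell markers was 104 to 162 CPM in controls and 151 to 200 with T.mu, and that of 26 T cell and intraepithelial lymphocyte markers was 49.5 to 53.9 and 51.3 to 66.8. Most of these markers had too few counts to be tested, and none of the 3, 4 and 2 that could be tested passed the threshold. Ctss, among the macrophage and dendritic cell markers tested, also stands in the MHC class II list. With so few markers testable, these sums cannot show whether the number of such cells differed. Cd79b, Mzb1, Cd4 and Thy1 had 0 counts in all 6 libraries, Itgax, which encodes CD11c, had 2 counts with T.mu and 1 in controls, and Csf1r had 1 and 3. The part of such cells in the class II result was not tested. In a bulk sample, more or fewer cells of a type and more or less RNA per cell cannot be told apart.

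**Figure D3:**
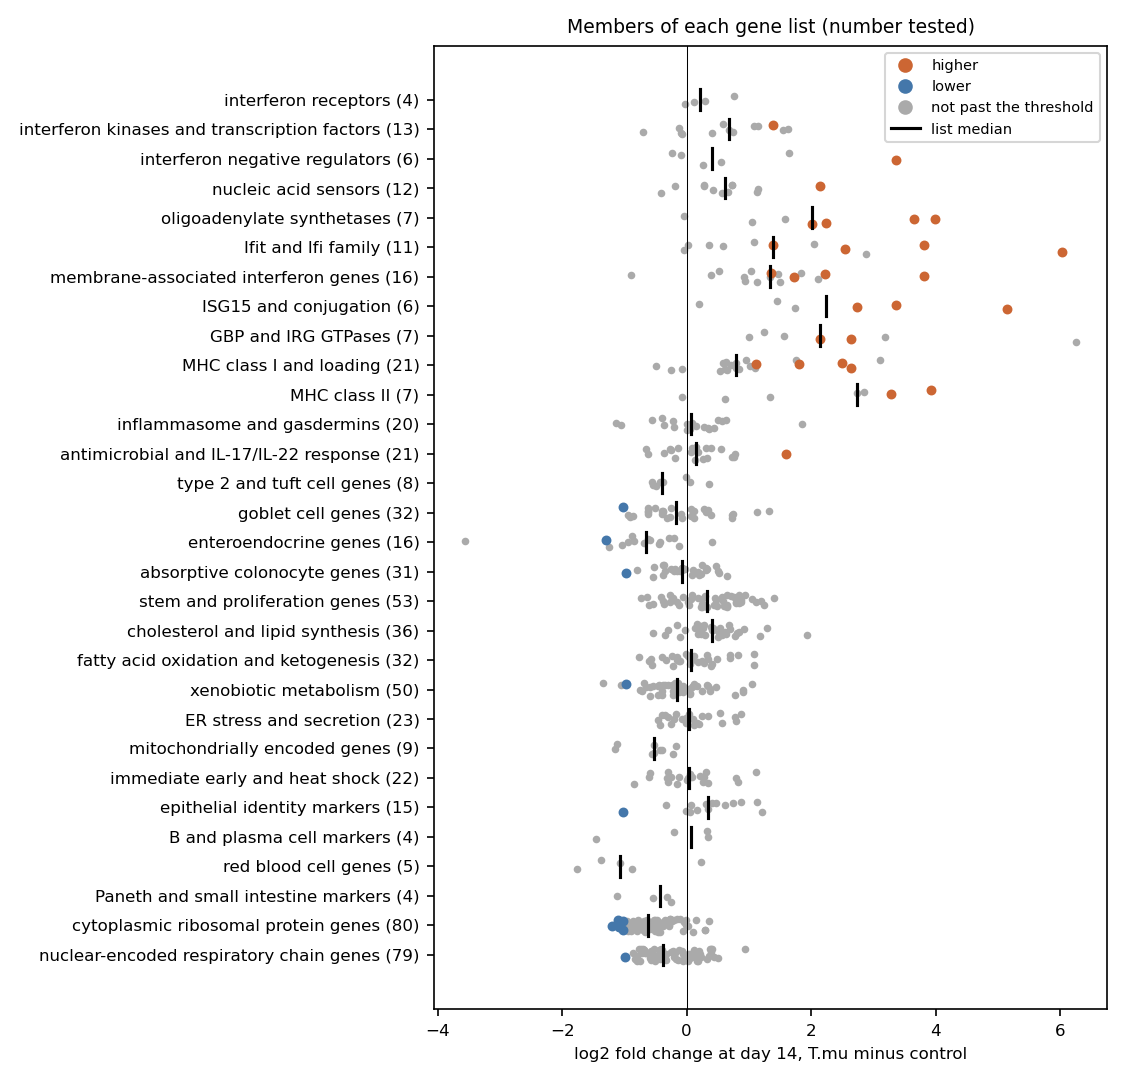
Log2 fold changes between T.mu and control of the tested members of each gene list with at least 4 such members, the number tested standing after its name. Orange and blue points are members past the threshold, grey points are the others, and the black tick is the list median. The tick lies well to the right of 0 for the oligoadenylate synthetase, ISG15, GTPase and MHC class II lists and to the left for the ribosomal protein and enteroendocrine lists.

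Outside the interferon and MHC lists, 8 further genes were higher beside Ifi47. Of the 9, Ifi47, Upp1, Ly6e, Pla2g4c, Akr7a5, Ccnd3 and Dnajc22 are described because they passed, after their values had been seen. Cd177, a surface glycoprotein best known from neutrophils, was at 71.2, 77.98 and 125 CPM in the controls and 236, 307 and 288 CPM with T.mu, 3.01-fold higher (log2 difference 1.59 ± 0.29, adjusted p = 0.00101). It was past the threshold with any 1 library left out. The summed level of 17 neutrophil and eosinophil markers was 94.7 to 103 CPM in controls and 90.6 to 146 with T.mu. Of these, 1 had enough counts to be tested, Ly6g, with a log2 difference of 0.20 that did not pass, and Cxcr2, Ngp, Camp and Ear2 had 0 counts in all 6 libraries. The part of such cells in the Cd177 result was not tested.

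Ly6a and Ly6e encode lipid-anchored surface proteins that interferon can induce. Ly6a, also called Sca-1, was at 225, 242 and 237 CPM in the controls and 370.0, 531 and 1028 CPM with T.mu (log2 difference 1.45 ± 0.27, adjusted p = 0.00149), with close control values and T.mu 3 about 2 times as high as T.mu 2. Ly6e was at 336, 344 and 355 CPM in the controls and 685, 593 and 912 CPM with T.mu (log2 difference 1.08 ± 0.24, adjusted p = 0.0114), and its control values also lay close together. The Ly6a call was lost without T.mu 3 (0.163), and the Ly6e call without T.mu 3, control 1 or control 2 (up to 0.182). Members of this family are similar in sequence, and reads may be shared.

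Upp1, uridine phosphorylase, was at 36.2, 55.2 and 52.1 CPM in the controls and 112, 115 and 168 CPM with T.mu (log2 difference 1.45 ± 0.32, adjusted p = 0.011). Pla2g4c, a phospholipase that frees fatty acids from membranes, had 0 counts in the 3 controls and 7.60, 7.68 and 17.97 CPM with T.mu. Its 42 counts put it at least 10.6-fold higher against a floor of 3 counts over the control group (adjusted p = 0.0114). Controls of the other days did hold counts, with means of 3.86 CPM at day 3 and 9.22 CPM at day 48. The T.mu means were 3.27 CPM at day 3, 11.1 CPM at day 14 and 55.1 CPM at day 48. Akr7a5, an aldo-keto reductase, was at 21.7, 22.8 and 41.7 CPM in the controls and 103, 67.6 and 64.7 CPM with T.mu (log2 difference 1.43 ± 0.33, adjusted p = 0.019).

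Ccnd3, which encodes cyclin D3, was at 6.04, 4.75 and 12.2 CPM in the controls and 48.8, 24.6 and 35.9 CPM with T.mu (log2 difference 2.21 ± 0.54, adjusted p = 0.0289), and Dnajc22, a co-chaperone of the J-domain family, was at 4.83, 16.2 and 5.21 CPM in the controls and 34.2, 33.04 and 44.9 CPM with T.mu (log2 difference 2.06 ± 0.51, adjusted p = 0.0289). All 5 of these genes had separate groups. None kept its call throughout: Upp1 was not past the threshold without T.mu 3 or control 1 (up to 0.161), Pla2g4c without T.mu 3, control 1, control 2 or control 3 (up to 0.106) and Akr7a5 without T.mu 1, control 1 or control 2 (up to 0.246). Ccnd3 was not past it without T.mu 1, T.mu 3, control 1 or control 2 (up to 0.326), and Dnajc22 was past it only without control 2 (up to 0.273 in the others).

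The lower genes were of a different kind. The largest group encodes proteins of the cytoplasmic ribosome, which make up the machine that translates messenger RNA. Of 80 such genes tested, 6 were lower and none higher, 49 had an unadjusted p under 0.05 in the lower direction (5% of all genes), and in 60 the T.mu values lay below every control (8.94% of all genes). The list median was -0.62.

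Rpl37a was at 499.9, 451 and 368 CPM in the controls and 165, 197 and 210.3 CPM with T.mu (log2 difference -1.20 ± 0.26, adjusted p = 0.00851). Rpl34 was at 512, 533 and 459.5 CPM in the controls and 236, 248 and 254 CPM with T.mu (log2 difference -1.03 ± 0.24, adjusted p = 0.017), and Rps28 was at 541, 563 and 359.6 CPM in the controls and 189, 254 and 246 CPM with T.mu (log2 difference -1.09 ± 0.25, adjusted p = 0.017). In these genes every T.mu library was low, with T.mu 1 the lowest. Rpl32, Rpl39 and Rps27 fell by 1.02, 1.10 and 1.10 on the log2 scale (adjusted p = 0.0288, 0.0289 and 0.0289). Rpl8 (0.36) and Rplp0 (0.29) had positive log2 differences and did not pass. Without T.mu 1, control 1 or control 2, none of the 80 was past the threshold, 1 was without T.mu 3, 2 were without T.mu 2 and 4 were without control 3. With each day and litter as a block, 16 were lower. Ribosomal protein genes have many processed pseudogenes, and how such reads were assigned is not given in the sources used here.

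Several lower genes belong to mitochondria. Cox7c, a small subunit of cytochrome c oxidase, was at 316, 302 and 325 CPM in the controls and 136, 179 and 161 CPM with T.mu (log2 difference -0.99 ± 0.23, adjusted p = 0.0198), with narrow and separate groups. Tomm7, of the import channel of the outer membrane, was at 429.9, 474 and 398 CPM in the controls and 169, 238 and 236 CPM with T.mu (log2 difference -1.02 ± 0.24, adjusted p = 0.0221), and Mrpl52, a protein of the mitochondrial ribosome, was at 215, 209 and 155 CPM in the controls and 86.2, 102 and 93.5 CPM with T.mu (log2 difference -1.04 ± 0.26, adjusted p = 0.0371). Of 79 nuclear-encoded respiratory chain genes tested, Cox7c was the only one past the threshold, and the list median was -0.37. In the lower direction, 28 had an unadjusted p under 0.05 (5% of all genes).

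Transcripts made inside mitochondria were measured too. All 9 mitochondrially encoded genes tested had negative log2 differences (list median -0.52), and none passed the threshold. Their sum was 228200 to 275300 CPM in controls and 107300 to 135500 CPM with T.mu, most of it from the ribosomal RNA mt-Rnr2 at 189600.0, 207500.0 and 173600.0 CPM in the controls and 76000.0, 94140.0 and 87590.0 CPM with T.mu (log2 difference -1.15 ± 0.35, adjusted p = 0.156). The groups did not overlap for mt-Rnr2.

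A pair of lower genes are short noncoding RNAs made by RNA polymerase III. Rn7sk, which holds the elongation factor P-TEFb inactive, was at 3340.0, 2935 and 1568 CPM in the controls and 856, 1056 and 1152 CPM with T.mu (log2 difference -1.36 ± 0.30, adjusted p = 0.0122). Rpph1, the RNA of ribonuclease P, was at 688, 514 and 313 CPM in the controls and 265, 197 and 216 CPM with T.mu (log2 difference -1.16 ± 0.27, adjusted p = 0.0232). In both, control 3 was the lowest control and lay above every T.mu value.

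Genes of secretory cells followed. Tff3, a trefoil peptide that goblet cells release into mucus, was at 4499, 3853 and 3449 CPM in the controls and 1588, 1826 and 2364 CPM with T.mu (log2 difference -1.03 ± 0.26, adjusted p = 0.042). The groups were apart, but the call was lost with any 1 library left out (up to 0.333) and with litter number as a block (0.0523). It was the only 1 of 32 goblet cell genes past the threshold (list median -0.18). Of the 32, 18 had a negative and 14 a positive log2 difference. The T.mu values lay below every control in 8 of them (8.94% of all genes) and above every control in 3 (9.76%). Muc2, the main gel-forming mucin, was at 21660.0, 30650.0 and 18510.0 CPM in the controls and 18080.0, 15350.0 and 16580.0 CPM with T.mu (log2 difference -0.50 ± 0.24, adjusted p = 0.463), Zg16, a lectin of mucus, was at 6256, 5486 and 6011 CPM in the controls and 3891, 3610.0 and 4034 CPM with T.mu (log2 difference -0.62 ± 0.22, adjusted p = 0.242), and Guca2a, which encodes guanylin, was at 3516, 4167 and 3245 CPM in the controls and 1980.0, 1838 and 2188 CPM with T.mu (log2 difference -0.86 ± 0.23, adjusted p = 0.0703). These 3 genes had every T.mu value below every control, and none passed.

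Insl5, a hormone of enteroendocrine L cells of the colon, was at 144, 105 and 114 CPM in the controls and 39.3, 38.4 and 70.1 CPM with T.mu (log2 difference -1.30 ± 0.29, adjusted p = 0.011). Of 16 enteroendocrine genes tested it was the only one past the threshold, 15 had a negative log2 difference and the list median was -0.65. In the lower direction, 4 had an unadjusted p under 0.05 (5% of all genes). The Insl5 call was lost without T.mu 1, T.mu 2 or control 1 (up to 0.157). Neurod1, a transcription factor of these cells, had 3 counts with T.mu and 30 in controls (adjusted p = 0.0803), and Sct, which encodes secretin, was at 31.4, 36.1 and 26.1 CPM in the controls and 13.9, 7.68 and 17.97 CPM with T.mu (log2 difference -1.24 ± 0.39, adjusted p = 0.164).

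The other lower genes were Cyp2c55, Phgr1, Selenop and Pnrc1. Cyp2c55, a cytochrome P450 of colonocytes, was at 3014, 2197 and 2729 CPM in the controls and 1243, 1558 and 1255 CPM with T.mu (log2 difference -0.97 ± 0.23, adjusted p = 0.0232). Phgr1, a small protein abundant in gut epithelium, was at 1590.0, 1474 and 1232 CPM in the controls and 679, 721 and 722 CPM with T.mu (log2 difference -1.02 ± 0.23, adjusted p = 0.017), and Selenop, which carries selenium, was at 840.4, 965 and 907 CPM in the controls and 510.0, 358 and 466 CPM with T.mu (log2 difference -1.02 ± 0.24, adjusted p = 0.017). Pnrc1, a coactivator of nuclear receptors, was at 60.4, 74.2 and 50.4 CPM in the controls and 22.8, 18.4 and 25.2 CPM with T.mu (log2 difference -1.47 ± 0.32, adjusted p = 0.0108) and had the largest fold difference among the lower genes. The groups were apart in all 4 genes.

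Most of the lower calls were lost when a library was left out. Without any 1 library, Cox7c, Tomm7, Cyp2c55, Rpl32, Rps27 and Tff3 were never past the threshold (adjusted p up to 0.246, 0.294, 0.272, 0.259, 0.333 and 0.333). Rn7sk, Rpl34, Phgr1, Rps28, Rpph1, Mrpl52 and Pnrc1 were past it only without control 3 (up to 0.174, 0.129, 0.193, 0.216, 0.364, 0.273 and 0.129 in the others), and Selenop only without T.mu 1 (up to 0.182). Rpl37a was not past it without T.mu 1, control 1 or control 2 (up to 0.111), and Rpl39 was not without T.mu 1, T.mu 3, control 1 or control 2 (up to 0.356).

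The lower genes were also short. Their median transcript length in the annotation was 709 bases, against 1964 for the higher genes and 3495 for all genes tested, and 11 of the 17 were under 1000 bases. The 626 genes tested under 1000 bases had a median log2 difference of -0.38. The 556 of them outside the ribosomal protein and respiratory chain lists had a median of -0.34. Across all genes tested the log2 difference had a Spearman correlation of 0.32 with GC content and of -0.09 with length, given as a description over genes that share the same 6 libraries. The part of length, GC content and the mitochondrial share in the lower genes was not tested on its own. The 1 fit with a correction for GC content and length also had litter number as a block, and 16 of the 17 were past the threshold in it.

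**Figure D4:**
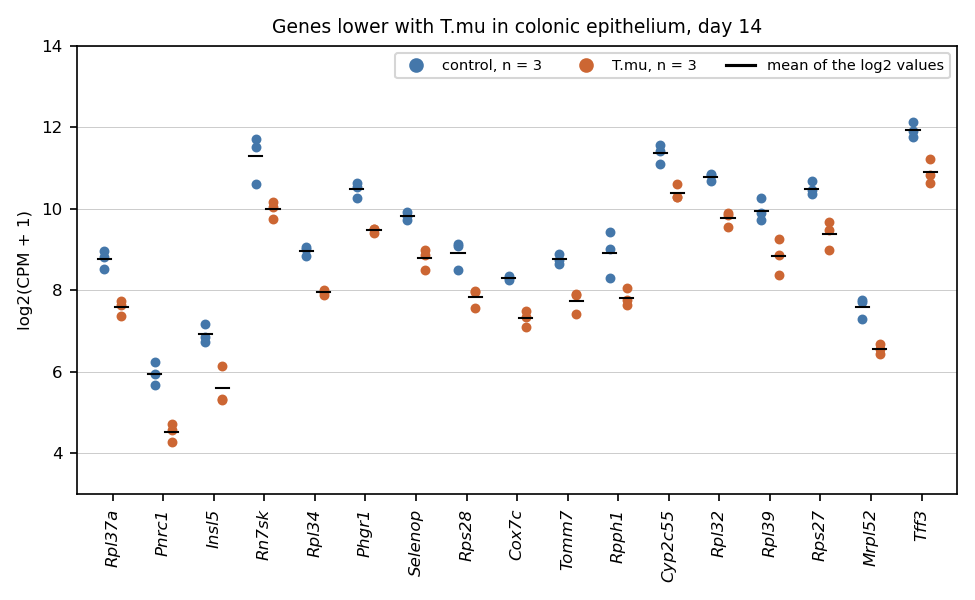
Levels of the 17 lower genes in each library, as log2 of CPM plus 1 on an axis that begins at 3, with the genes ordered by adjusted p. Blue points are the 3 controls, orange points are the 3 T.mu libraries and the bar is the mean of the log2 values. The orange points lie below the blue points for every gene, by about 1 log2 unit.

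Inflammasome genes, which build the complex that matures IL-1 family cytokines, had no member past the threshold. Among 20 inflammasome and gasdermin genes the list median was 0.07. Casp1, which activates IL-18, was at 147, 123 and 122 CPM in the controls and 112, 109 and 118 CPM with T.mu (log2 difference -0.21 ± 0.27, adjusted p = 0.858), and Il18 itself was at 104, 97.95 and 176 CPM in the controls and 88.7, 88.3 and 118 CPM with T.mu (log2 difference -0.37 ± 0.34, adjusted p = 0.776). Il18bp, which neutralizes IL-18 and is induced by interferon-gamma, was at 2.42, 3.80 and 1.74 CPM in the controls and 7.60, 7.68 and 14.4 CPM with T.mu, above the controls in each T.mu library, and did not pass (log2 difference 1.85 ± 0.85, adjusted p = 0.433).

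Tuft cells sense protozoa and start type 2 immunity in the small intestine. Of 24 tuft cell and type 2 genes listed, 8 could be tested and none passed (list median -0.40). Dclk1, a tuft cell marker, was at 13.3, 13.3 and 19.98 CPM in the controls and 15.2, 6.15 and 11.7 CPM with T.mu (log2 difference -0.49 ± 0.50, adjusted p = 0.802), with overlapping groups. The epithelial response to IL-17 and IL-22 was represented by 21 genes tested, of which Cd177 alone passed (list median 0.15). Reg3g, an antimicrobial lectin, was at 138, 137 and 509 CPM in the controls and 62.1, 473 and 625 CPM with T.mu (log2 difference 0.55 ± 0.80, adjusted p = 0.876), and Retnlb, a goblet cell protein of type 2 responses, was at 245, 594 and 307 CPM in the controls and 159, 571 and 1183 CPM with T.mu (log2 difference 0.73 ± 0.91, adjusted p = 0.853). Both varied several-fold among replicates of 1 group.

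Proliferation and lipid synthesis genes lay slightly on the higher side without a call. Of 53 stem and proliferation genes, 6 had an unadjusted p under 0.05 in the higher direction and none in the lower (list median 0.32). Over all genes these shares were 5.34% and 5%. Ccna2, which encodes cyclin A2, was at 14.5, 19.97 and 39.96 CPM in the controls and 31.04, 86.8 and 62.00 CPM with T.mu (log2 difference 1.23 ± 0.38, adjusted p = 0.148), and Top2a was at 65.2, 63.7 and 52.1 CPM in the controls and 67.2, 151 and 114 CPM with T.mu (log2 difference 0.88 ± 0.28, adjusted p = 0.173). Of 36 cholesterol and lipid synthesis genes, 8 had an unadjusted p under 0.05 in the higher direction (5.34% of all genes). None had one in the lower (5% of all genes), and the list median was 0.41. Mvk, mevalonate kinase, was at 7.25, 1.90 and 17.4 CPM in the controls and 41.8, 27.7 and 34.1 CPM with T.mu (log2 difference 1.92 ± 0.51, adjusted p = 0.0644), and Fads2, a fatty acid desaturase, was at 31.4, 36.1 and 76.4 CPM in the controls and 148, 85.3 and 123 CPM with T.mu (log2 difference 1.29 ± 0.36, adjusted p = 0.082). Without control 3, the library with the highest control values of Mvk and Fads2, 2 genes of the lipid list were past the threshold.

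Of 50 xenobiotic metabolism genes, Cyp2c55 alone was lower and the list median was -0.15. Of 31 absorptive colonocyte genes, Cyp2c55 was again the only one past the threshold (list median -0.07). In 32 genes of fatty acid oxidation and ketogenesis and 23 of ER stress and secretion, none passed and the list medians were 0.07 and 0.04. Among 15 epithelial identity markers Phgr1 was lower and none was higher, with a list median of 0.34. At an unadjusted p under 0.05, 5 were higher (5.34% of all genes) and 1 was lower (5% of all genes). The summed level of these markers was 10310 to 13230 CPM in controls and 13280 to 17130 CPM with T.mu.

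How did the same genes behave on the other days? Each day had its own mice and controls, in the same fit. At day 3, 33 genes were higher (0.326%), and 15 of them were among the 34 higher at day 14 (45.5% of the day 3 genes and 44.1% of the day 14 genes). At day 48, 28 genes were higher (0.277%), and 18 of them were among the 34 (64.3% and 52.9%). In all, 12 genes were past the threshold on all 3 days, and 13 at day 14 alone. The 34 genes had a median log2 difference of 2.22 at day 14, 1.67 at day 3 and 1.41 at day 48, and 32 and 34 of them were positive on the other days. None of the 17 lower genes was past the threshold on either other day, where 16 and 17 of them were negative, with medians of -0.32 and -0.40. Both sets were chosen by their day 14 difference, so smaller medians on the other days do not show a change between days. Of all genes, 3 were lower at day 3 (0.0296%) and 2 at day 48 (0.0198%).

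A gene past the threshold on 1 day and not on another is not thereby different, so the differences between days were tested as interactions. Between day 14 and day 48 no gene passed (edgeR), with 278 (2.75%) at an unadjusted p under 0.05. Between day 14 and day 3, 1 gene of 10119 passed (0.00988%), the haemoglobin gene Hbb-bs, and 540 (5.34%) had an unadjusted p under 0.05. The Hbb-bs call was lost without control 2, T.mu 2 or T.mu 3 (adjusted p = 0.0903, 0.0890 and 0.0974).

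Cd74 was at a log2 difference of -0.58 (adjusted p = 0.878) at day 3 and 4.00 (adjusted p = 0.00149) at day 48, and its change from day 3 to day 14 was 4.51 ± 1.21 (adjusted p = 0.511). Tap1 was at 1.75 (adjusted p = 0.174) and 1.09 (adjusted p = 0.362) on these days, with a day 14 minus day 48 difference of 1.55 ± 0.54 (adjusted p = 1). Ifi44 was at 4.81 (adjusted p = 0.00835) and 1.80 (adjusted p = 0.111), with a day 14 minus day 48 difference of 4.23 ± 1.12 (adjusted p = 1). Irf1 was at 0.38 (adjusted p = 0.741) and -0.20 (adjusted p = 0.996), with a day 14 minus day 48 difference of 1.34 ± 0.41 (adjusted p = 1). Oasl2 (3.91 (adjusted p = 3.62e-07) and 2.64 (adjusted p = 1.76e-07)), Lgals3bp (2.38 (adjusted p = 9e-08) and 1.31 (adjusted p = 0.000397)) and Irf7 (2.80 (adjusted p = 9e-08) and 1.53 (adjusted p = 0.000187)) were past the threshold on each day. Their day 14 minus day 3 differences were -0.26 ± 0.72, -0.65 ± 0.38 and -1.41 ± 0.43 (edgeR, adjusted p = 0.994, 0.936 and 0.553). None of the differences between days named here passed.

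**Figure D5:**
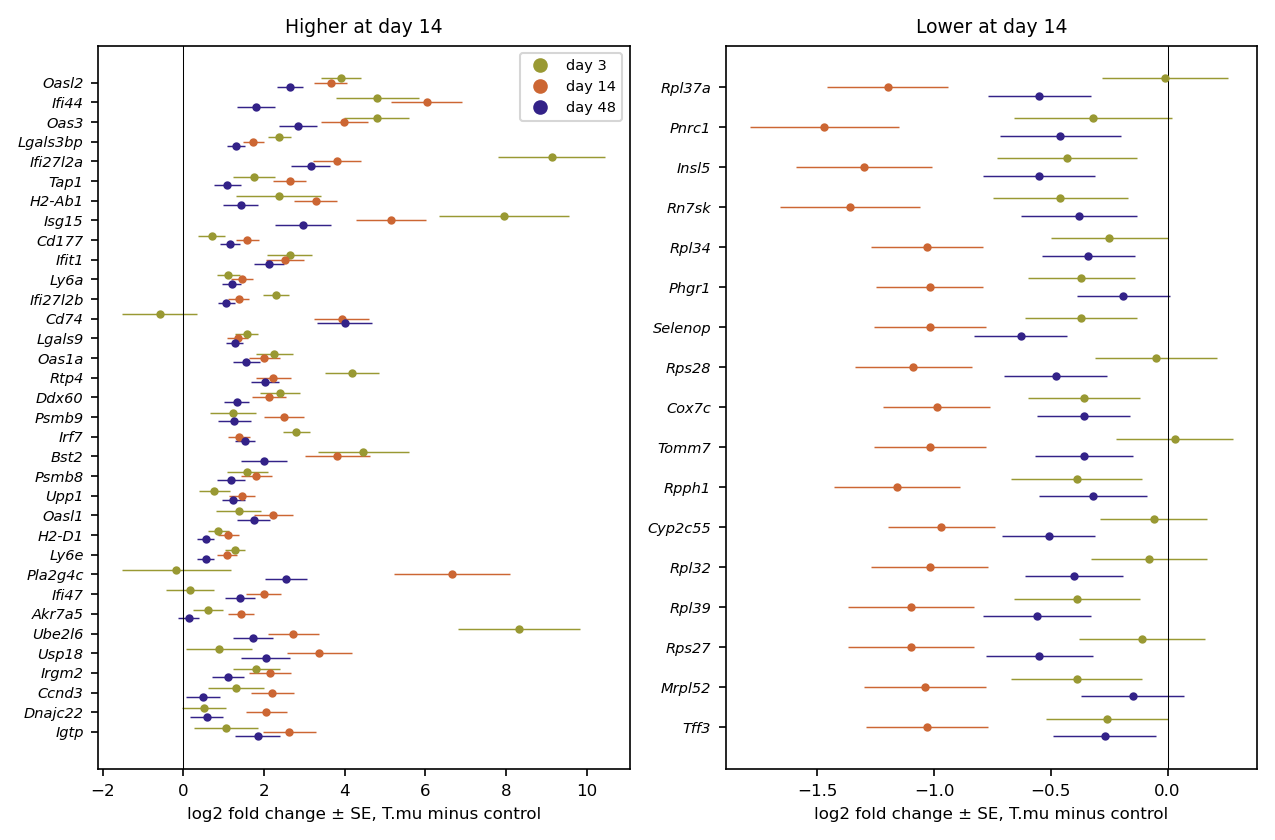
Log2 fold changes, with standard errors derived from the F test, of the 34 genes higher (left) and the 17 genes lower (right) at day 14. They are given for days 3, 14 and 48 in epithelium, n = 3, 3 and 4 per group. The day 3 and day 48 points of the higher genes mostly lie to the right of 0, and those of the lower genes lie closer to 0 than the day 14 points. All the genes were chosen by their day 14 difference, which favours larger values on that day.

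Total colonic tissue at day 14 was fitted with all 40 libraries. Of 11834 genes tested there, 71 differed (0.6%) and 66 of those were higher in the tissue (0.558%). Of the 34 genes higher in epithelium, 24 were also higher in the tissue and 31 had a positive log2 difference there, with a median of 1.71. Of the 17 lower genes none was lower in the tissue (background 0.0423%), 11 were negative, and the median was -0.07. Cox7c was at 0.44 (adjusted p = 0.715) and Rpl32 at 0.28 (adjusted p = 0.884) in the tissue. Cd74 (1.40 (adjusted p = 0.788)) and H2-Ab1 (1.58 (adjusted p = 0.681)) did not pass there, and Ccnd3, Akr7a5 and Dnajc22 were at -0.04 (adjusted p = 0.998), -0.08 (adjusted p = 0.994) and 0.35 (adjusted p = 0.944). In the test of the difference between epithelium and tissue, no gene passed (edgeR), and 844 (7.13%) had an unadjusted p under 0.05. Among them were 15 of the 17 lower and 8 of the 34 higher genes. These genes were chosen by the epithelial difference that enters this test, so their counts cannot be compared with 7.13%. Cox7c had the smallest p of that test, with an epithelium minus tissue difference of -1.43 ± 0.32 (adjusted p = 0.213). In the tissue, 2 of the 3 controls held under 400000 counts.

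The deposited table has 1 entry that is not a mouse gene, which the labels do not identify. As CPM of all counts of a library, it was at 41.8, 58.1 and 40.9 in the controls and at 274, 1511 and 456 with T.mu. Every T.mu value was above every control value. The means were 747 ± 668 with T.mu and 46.9 ± 9.66 in controls (SD, n = 3 each; exact two-sided permutation test, p = 0.1, the smallest that 3 against 3 can give).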

How the data were processed

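The authors deposited a table of raw counts, with genes in rows and libraries in columns. The values come from 3′ digital gene expression libraries per the labels' protocols, and the tools STAR and Subread, with no version or role, are listed per the submitters' processing notes. The genome build, the annotation, strand use and molecular identifiers are not given in the sources used here, so intervals cover counting error only. Between 68.2% and 71.6% of values from 1 to 20 are even, so low counts are less precise than they look. Of 45792 mouse gene IDs, 45143 (98.6%) had a symbol in GENCODE M21 (GRCm38), whose lengths and GC contents were used. The 1 entry that is not a mouse gene (40.9 to 1511 CPM of a library) stayed out of library sizes and tests.

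One edgeR 4.0.16 quasi-likelihood fit (R 4.3.3) covered the 20 epithelial libraries in 6 groups, which share 1 estimate of spread, with TMM scaling, robust dispersion and genes kept by filterByExpr at a minimum count of 10 and a total of 15. Adjusted p-values are Benjamini-Hochberg over the whole fit, and 0.05 is the threshold. The standard error after ± on a log2 difference was not estimated directly. It is the absolute log2 difference divided by the square root of the F statistic, and so is approximate. Alternatives were RLE scaling, DESeq2 1.42.0, limma 3.58.1 voom, no low count filter, other library sets, halved counts, litter blocks, and each library left out.

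Litter numbers pair the libraries per the labels. Deviations of same-litter libraries correlated at 0.0200, 0.0324 and -0.0280. That the 3 mice of a group are separate animals is in the series' design. Members and gene lists were chosen with earlier results of these data known. By rule, named genes were the 15 higher and 15 lower with the smallest adjusted p and the same sign in 3 litter pairs. Up to 4 per list past the threshold and a short list always named were added. Further members that did not pass, such as Zg16, Guca2a, Sct, Neurod1, H2-K1, B2m, Gbp3, Mx1 and Rpl8, were named outside this rule, after their values had been seen. Up to 2 members are given as values where a list had none past the threshold. Some members of the gene lists are counted but not reported by name here.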

Additional observations from a re-analysis of the deposited data

Results flagged for a closer look

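Hbb-bs, an adult beta-globin gene of red blood cells, was the 1 gene whose difference between T.mu and control changed between days past the threshold (day 14 minus day 3 log2 difference -4.12 ± 0.73, adjusted p = 0.0107, edgeR). At day 14 it was at 24.1, 32.3 and 24.3 CPM in controls and 11.4, 4.61 and 7.19 CPM with T.mu (log2 difference -1.76, adjusted p = 0.148). At day 3 it was at 25.03, 42.1 and 10.6 CPM in controls and 187, 58.9 and 192 CPM with T.mu (log2 difference 2.35, adjusted p = 0.0129). The T.mu values were above every control at day 3 and below every control at day 14. Of 5 red blood cell genes tested, none passed at day 14. The call was lost with either litter block, DESeq2, limma voom, without libraries under 400000 counts and without control 2, T.mu 2 or T.mu 3. How much blood each preparation held was not tested.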

How the results depend on the processing

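With 3 libraries per group, many calls depended on single libraries. The 51 genes past the threshold (34 higher, 17 lower) became 93 with each day and litter as a replicate block (42 lower; added after seeing the data), 104 with litter number as a replicate block and GC and length correction (53 higher, 51 lower), 95 with DESeq2 (45 lower), 262 with only the 6 day 14 libraries (142 higher, 120 lower), 80 with counts halved (31 lower) and 90 without libraries under 400000 counts (39 lower). With limma voom 27 were lower. Leaving out 1 library gave 19 to 48 genes, 17 to 36 higher and 0 to 12 lower. Litter number as a replicate block gave 59 and ended the call of Tff3 only, and the day and litter block that of Usp18 only. RLE scaling, no low count filter and leaving out ribosomal RNA genes and Lars2 gave 55, 68 and 53. The 51 genes kept their direction in all alternatives run. Over genes and alternatives, 691 results kept their side of the threshold and 165 lost it.

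The day 14 minus day 3 count of 1 became 0 with either replicate block, DESeq2 and limma voom, and was 0 to 1 with 1 library left out. The epithelium minus total colon count of 0 became 1 with the replicate block. The day 14 minus day 48 count was 0 throughout. Signs changed only in genes that did not pass. H2-Aa was at -0.02 with limma voom, and with the replicate block and GC and length correction Casp1 was at 0.04, Epcam at -0.06 and Ccl5 at 0.04. With 1 library left out, log2 differences ranged from -0.33 to 0.23 for Il10rb, -0.30 to 0.15 for Jak1, -0.91 to 1.90 for H2-Aa, -0.05 to 1.21 for Retnlb, -0.34 to 0.47 for Ccl5, -0.05 to 0.36 for Ly6g and -0.68 to 0.05 for Apob. The cause of these changes was not tested.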
